A study of Mus musculus with 12 samples.

Results

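The 8 genes described here are markers of the cells that wrap blood vessels (mural cells) and of fibroblasts: Pdgfrb, Rgs5, Cspg4, Acta2, Tagln, Dcn, Lum and Pdgfra. They were taken by name, with earlier results of these data known. All 8 were found among the 55421 gene IDs of the count tables, and all passed the filter on low counts that left 22630 genes. The tables come from bulk RNA sequencing of 12 mouse pituitary libraries, in 4 groups of 3. All mice were C57BL/6 and Gpr101 fl/fl, that is, with a Gpr101 gene flanked by sites that cre recombinase recombines. Gpr101 encodes an orphan G protein-coupled receptor. The genotype labels name an adeno-associated virus (AAV) with Cga, either Cga-creAAV or Cga-ctrlAAV, and Cga is the gene of the glycoprotein hormone alpha subunit made by gonadotrophs and thyrotrophs. Each mouse was given AA14, or control vehicle, for 1 week. The groups are called cre_AA14, cre_vehicle, ctrl_AA14 and ctrl_vehicle here. Age, sex and the number of pituitaries per library are not in the labels. The labels do not say that the libraries came from separate mice, and p-values therefore reflect only how much these libraries vary. Per the labels' protocols the pituitary was dispersed to single cells before RNA was isolated, with flow cytometry mentioned, so a library holds the cells that came through that step.

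Pericytes sit on capillaries and depend on platelet-derived growth factor B from endothelial cells, which acts on the receptor PDGFRB. Smooth muscle cells ring arterioles and larger vessels and carry contractile proteins, and fibroblasts make the collagens and proteoglycans of the capsule and of the connective tissue around vessels. The pituitary is rich in capillaries, through which its hormones reach the blood. Some of the markers are shared: oligodendrocyte precursors use Pdgfra and Cspg4 too, and stromal cells can make Acta2 and Tagln. In bulk tissue, fewer cells of a type and less RNA per cell cannot be told apart.

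Totals were 48693682 to 73388221 counts per library. Counts of the members over the libraries ran from 10006 to 17982 for Dcn and from 4649 to 15712 for Rgs5, but from 20 to 413 for Cspg4, so Cspg4 has the largest counting error of the 8. Levels are given as CPM, a gene's counts divided by its library's total and set to a common scale with TMM factors. The targeted gene, Gpr101, averaged 1.97 ± 0.927 CPM in cre_AA14 and 2.67 ± 1.52 in cre_vehicle (SD, n = 3 each). It averaged 4.03 ± 2.29 in ctrl_AA14 and 6.32 ± 8.46 in ctrl_vehicle, where the mean rests on library 3 with 16.1 CPM. The log2 fold change for cre against control was -1.24 (SE 0.89) under vehicle and -1.03 (SE 0.89) under AA14. Averaged over both it was -1.14 (SE 0.63). None of these passed edgeR's test after adjustment over all genes tested, so a loss of Gpr101 with cre was not shown. The library ctrl_vehicle 3 stood apart: 371 of the 16406 genes that averaged 1 CPM or more (2.26%) were at least 2-fold above every other library there. The next was cre_AA14 1 with 116 genes (0.707%). Fits were repeated without ctrl_vehicle 3. Malat1, a nuclear long noncoding RNA, fell into separate ranges: 5 libraries (ctrl_AA14 1, 2 and 3, cre_AA14 2 and cre_vehicle 1) had 1105 to 1560 CPM, and the other 7 had 199 to 549 CPM. Its values are set beside the members where they move together.

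Per kilobase of exon, the matrix gene Dcn and the pericyte gene Rgs5 led the 8 genes. Dcn averaged 38.2 CPM per kb over the 12 libraries and Rgs5 37.7 CPM per kb. Lum followed with 11.1, Tagln with 7.84, Acta2 with 3.77, Pdgfrb with 2.52, Pdgfra with 2.29 and Cspg4 with 0.107 CPM per kb. The ranges of the libraries overlapped for Dcn (31.0 to 48.0) and Rgs5 (15.7 to 52.0), and likewise for Pdgfrb (1.47 to 4.65) and Pdgfra (1.47 to 4.56). Those of Acta2 and Pdgfrb overlapped as well, so these neighbours in the order did not differ beyond their spread. The ranges of Lum and Tagln, and of Tagln and Acta2, overlapped only through ctrl_vehicle 3. Cspg4 was at most 0.475 CPM per kb, below the lowest library of every other member. Without ctrl_vehicle 3 the means of Rgs5 and Dcn changed places, at 39.0 and 38.3 CPM per kb, and the mean of Acta2 was 2.61 CPM per kb.

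**Figure D1:**
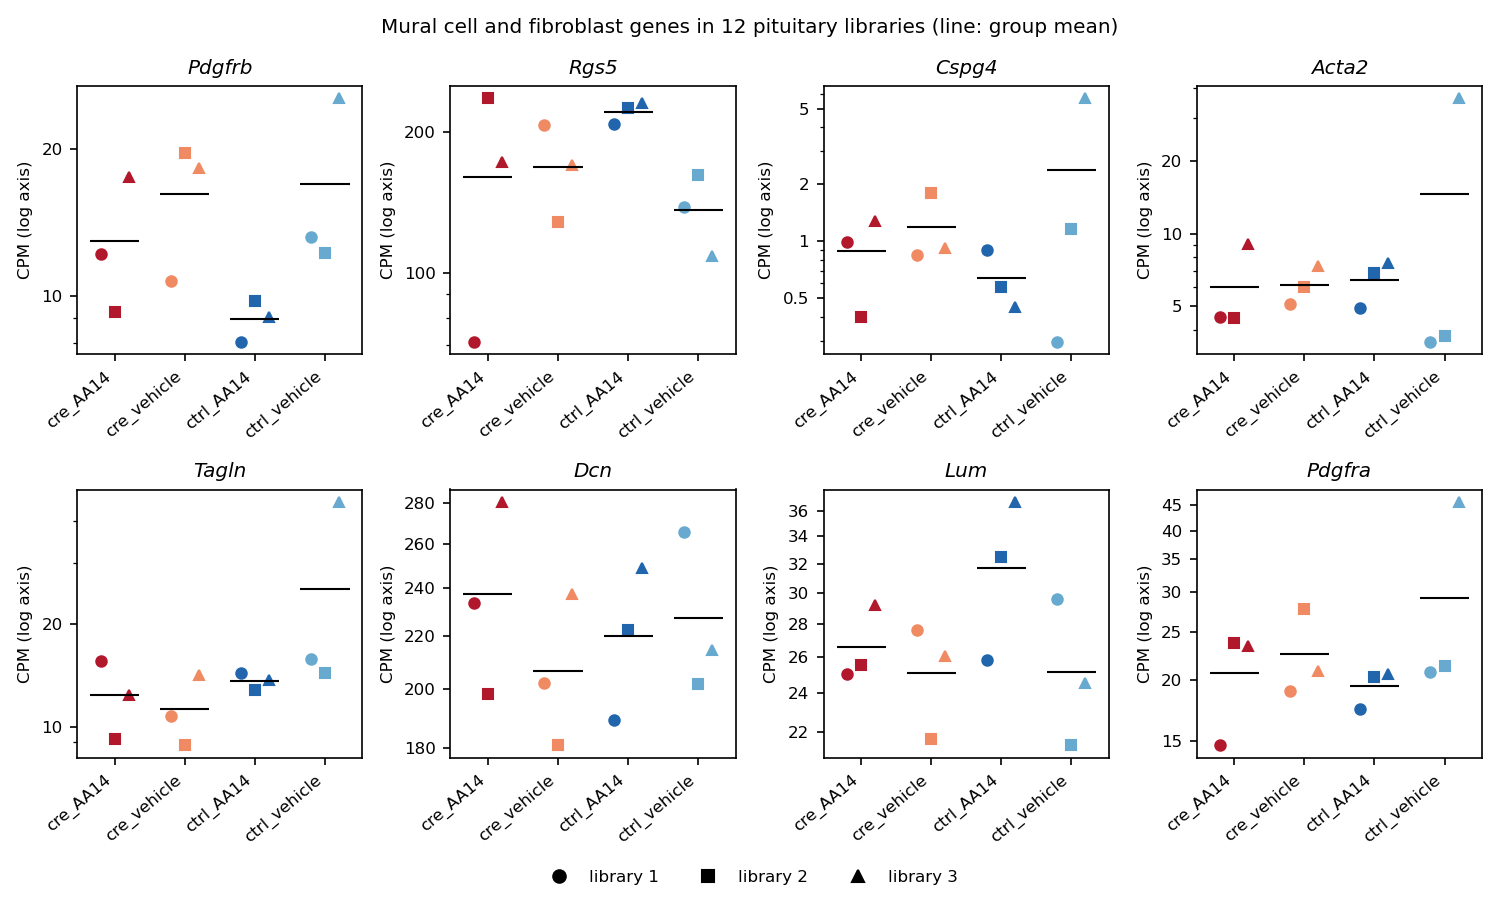
CPM (log axis) of each of the 8 genes in the 12 libraries, by group; each marker is a library and the line is the group mean. Acta2, Tagln and Cspg4 have 1 point far above the rest, the library ctrl_vehicle 3 with 36.2, 45.4 and 5.67 CPM, while Dcn and Lum lie close together in all groups.

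In the 4 comparisons of groups, Dcn and Lum, the matrix genes, had log2 fold changes of -0.25 to 0.33, and Acta2 and Tagln, the contractile genes, of -1.24 to 0.14. No member passed the threshold in any comparison of edgeR's quasi-likelihood test, with p-values adjusted over all 22630 genes at 0.05. For AA14 against vehicle under the control virus, 0 of 8 members and 0.00442% of all genes tested were called. The share called was 0% for AA14 against vehicle under the cre virus and for cre against control under AA14. It was 0.00442% for cre against control under vehicle, for the difference between the AA14 effects and for each average effect. At an unadjusted p under 0.05, 3 members (Pdgfrb, Cspg4 and Tagln, all with negative values) passed in the AA14 comparison under the control virus, where 23.8% of all genes did. A single member, Tagln, passed under vehicle for cre against control (background 2.00%), 1, Pdgfrb, for the average AA14 effect (17.4%) and 1, Tagln, for the average cre effect (1.96%). With ctrl_vehicle 3 left out, 1 member passed at that level for AA14 under the control virus, where 3269 of 23436 genes did. For these other 3 comparisons 0 members then passed. With 1 library left out at a time, the member count for AA14 under the control virus ran from 1 to 6. It was highest without ctrl_vehicle 1, where 5119 of 23686 genes passed. With all 12 libraries, none passed at that level for AA14 under the cre virus (2.29%) or for cre under AA14 (8.52%). The same held for the difference between the AA14 effects (7.03%). DESeq2 and limma-voom with quality weights called 0 members in all 7 comparisons. For AA14 under the control virus they called 10.2% and 15.1% of all genes. In the other comparisons DESeq2 called 0.0619% for AA14 under the cre virus, 0.150% for cre under AA14, 0.0840% for cre under vehicle, 0.115% for the difference, 0.411% for the average AA14 effect and 0.0530% for the average cre effect. The limma-voom fit called 0.00884% for cre under vehicle and for each average, and 0% for the rest. Rgs5 was called for AA14 under the control virus only by an edgeR fit of its 6 libraries alone (log2 fold change 0.71, adjusted p = 0.0381), which called 10.6% of genes.

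Among the pericyte genes, Pdgfrb and Rgs5 stood on opposite sides in ctrl_AA14. Pdgfrb (ENSMUSG00000024620, GRCm38 chromosome 18, 61045150 to 61085061, plus strand) encodes the receptor that keeps pericytes on capillaries. It had 12.2, 9.25 and 17.6 CPM in cre_AA14, 10.7, 19.6 and 18.3 in cre_vehicle, 8.05, 9.75 and 9.07 in ctrl_AA14, and 13.2, 12.2 and 25.5 in ctrl_vehicle. The 3 ctrl_AA14 libraries lay below all 3 ctrl_vehicle libraries, and the cre groups overlapped each other. Means were 8.95 ± 0.854 CPM in ctrl_AA14 and 16.99 ± 7.37 in ctrl_vehicle (SD, n = 3 each), and 12.7 ± 0.698 in ctrl_vehicle without library 3 (n = 2). The log2 fold change of -0.92 (SE 0.34) did not pass edgeR's test (adjusted p = 0.151), and without ctrl_vehicle 3 it was -0.51. Under the cre virus the AA14 value was -0.32 (SE 0.33), and the difference between the AA14 effects, cre minus control, was 0.60 (SE 0.47). That difference was 0.19 without ctrl_vehicle 3, 0.33 without cre_AA14 3 and 0.39 without cre_vehicle 1.

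Rgs5 (ENSMUSG00000026678, chromosome 1, 169655501 to 169695813, plus strand) encodes a regulator of G protein signaling that is abundant in brain pericytes. It had 71.2, 236 and 172 CPM in cre_AA14, 207, 129 and 171 in cre_vehicle, 209, 225 and 231 in ctrl_AA14, and 138, 162 and 109 in ctrl_vehicle. All ctrl_AA14 libraries were above all ctrl_vehicle libraries, and cre_AA14 held both the lowest and the highest library of the 12. Means were 221 ± 11.4 CPM in ctrl_AA14 and 136 ± 26.6 in ctrl_vehicle (SD, n = 3 each), a log2 fold change of 0.70 (SE 0.35, edgeR adjusted p = 0.238). The corresponding value under the cre virus was -0.08 (SE 0.34), and the difference between the effects was -0.78 (SE 0.49, edgeR adjusted p = 0.634). With 1 library left out at a time it ranged from -1.16, without cre_AA14 2, to -0.42, without cre_AA14 1. The lowest library for Rgs5, cre_AA14 1, also had 662 CPM of the immediate early gene Fos, against 5.33 and 102 CPM in the rest of its group. The part of that library's state in its Rgs5 level was not tested.

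Both genes followed the Malat1 ranges across group lines. In the 5 libraries above 1000 CPM of Malat1, Rgs5 had 207 to 236 CPM, against 71.2 to 172 CPM in the other 7. Pdgfrb had 8.05 to 10.7 CPM in those 5 libraries and 12.2 to 25.5 CPM in the other 7. The 2 sets of libraries did not overlap for these 2 members, and over all 22630 genes tested 9.23% were wholly higher and 13.1% wholly lower in the 5. Since ctrl_AA14 has 3 of the 5 libraries and ctrl_vehicle none, AA14 and the Malat1 range cannot be told apart within the control virus groups alone. With Malat1 above 1000 CPM as a term in the fit, a setting added after seeing the data, the log2 fold change for AA14 under the control virus was -0.02 for Rgs5 and -0.17 for Pdgfrb.

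**Figure D2:**
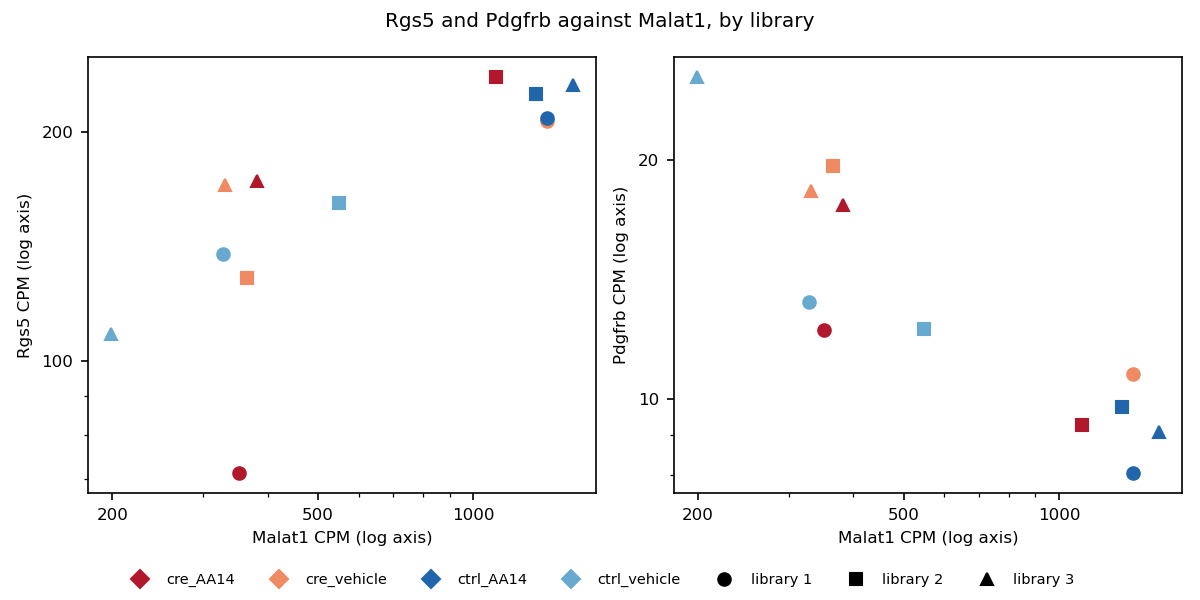
CPM of Rgs5 (left) and Pdgfrb (right) against Malat1 CPM in the 12 libraries (both axes log); colours are groups and marker shapes are library numbers. The 5 libraries with 1105 to 1560 CPM of Malat1 hold the highest Rgs5 values, 207 to 236 CPM, and the lowest Pdgfrb values, 8.05 to 10.7 CPM.

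Cspg4 (ENSMUSG00000032911, chromosome 9, 56865033 to 56899870, plus strand), the NG2 proteoglycan of pericytes and oligodendrocyte precursors, was the lowest of the 8 per kilobase. Its level was 1.00, 0.399 and 1.28 CPM in cre_AA14, 0.849, 1.79 and 0.923 in cre_vehicle, 0.899, 0.572 and 0.449 in ctrl_AA14, and 0.295, 1.17 and 5.67 in ctrl_vehicle. The highest library was 3.16 times the next, and every group overlapped the others. The log2 fold change of AA14 under the control virus was -1.89 (SE 0.85, edgeR adjusted p = 0.207), and -0.19 without ctrl_vehicle 3. For cre under vehicle it was -0.997 (SE 0.83), and 0.70 without that library.

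Cspg4 and Pdgfra, which oligodendrocyte precursors use too, were both highest in the libraries ctrl_vehicle 3 and cre_vehicle 2, with 5.67 and 1.79 CPM of Cspg4 and 45.7 and 27.8 CPM of Pdgfra. The same libraries had 412 and 292 CPM summed over 10 precursor genes, against 95.0 to 143 CPM in the other 10. Pdgfrb (25.5 and 19.6 CPM) and the pericyte gene Notch3 (25.0 and 24.4 CPM) had the same pair of top libraries, so this order was not particular to Cspg4 and Pdgfra. All 10 precursor genes were detected, and the part of such cells in the 2 members was not tested. In the groups the summed level was 108 to 126 CPM in cre_AA14, 120.1 to 292 in cre_vehicle, 95.0 to 143 in ctrl_AA14 and 109 to 412 in ctrl_vehicle.

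Of the 12 genes of the pericyte list, 3 (Abcc9, Higd1b and P2ry14) were wholly higher and 1 (Notch3) wholly lower in the 5 libraries with the most Malat1, and 8 overlapped. Among all genes tested, 9.23% were wholly higher and 13.1% wholly lower there. For AA14 under the control virus, 4 of the 12 had a positive and 8 a negative value, and none was called. The median log2 fold change was -0.53 against -0.02 over all genes, and 2 had an unadjusted edgeR p under 0.05 (23.8% of all genes). Without ctrl_vehicle 3 the list had 7 positive and 5 negative values and a median of 0.38, against 0.02 over all genes. Notch3, a receptor needed for mural cells to mature, averaged 7.52 ± 1.04 CPM in ctrl_AA14 and 17.2 ± 6.80 in ctrl_vehicle (SD, n = 3 each; log2 fold change -1.20, SE 0.45, edgeR adjusted p = 0.160). P2ry14, a receptor for UDP-glucose, averaged 12.4 ± 2.07 and 7.44 ± 1.17 CPM in the same groups (0.73, SE 0.34, adjusted p = 0.218). By Malat1 range, Notch3 had 6.22 to 8.45 CPM in those 5 libraries, against 9.80 to 25.0 in the other 7, and P2ry14 had 10.6 to 14.7 CPM, against 5.85 to 9.46. Vtn, the adhesion protein vitronectin, differed from both: 71.6 CPM in ctrl_vehicle 3 and 5.21 to 15.0 CPM elsewhere.

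The ligands of the PDGF receptors were all detected. Pdgfb, the endothelial ligand of PDGFRB, had 8.59, 3.19 and 6.18 CPM in cre_AA14, 4.65, 6.20 and 6.48 in cre_vehicle, 2.67, 4.89 and 3.65 in ctrl_AA14, and 8.78, 5.60 and 8.33 in ctrl_vehicle. The ctrl_AA14 libraries lay below the ctrl_vehicle libraries, as for its receptor and for 20.1% of all genes tested. The log2 fold change of Pdgfb was -1.02 (SE 0.36, edgeR adjusted p = 0.148). By Malat1 range Pdgfb also lay apart, at 2.67 to 4.89 CPM in the 5 libraries and 5.60 to 8.78 CPM in the other 7. Pdgfa, a ligand of PDGFRA, averaged 5.02 ± 1.09 CPM in ctrl_AA14 and 9.48 ± 6.36 in ctrl_vehicle (SD, n = 3 each), and 5.83 CPM in ctrl_vehicle without library 3. Pdgfd, also a ligand of PDGFRB, averaged 20.2 ± 2.71 in ctrl_AA14 and 16.4 ± 2.77 in ctrl_vehicle. None of the 4 ligands was called in any comparison. For AA14 under the control virus 2 had an unadjusted edgeR p under 0.05 (23.8% of all genes), and 1 did without ctrl_vehicle 3 (3269 of 23436 genes).

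Endothelial genes were measured as the neighbours of pericytes. Of 10, 6 had positive and 4 negative values for AA14 under the control virus, with a median of 0.03. None was called, and 5 had an unadjusted edgeR p under 0.05 (23.8% of all genes). Their summed level was 187 to 217 CPM in cre_AA14, 185 to 235 in cre_vehicle, 155 to 201 in ctrl_AA14 and 175 to 207 in ctrl_vehicle. Emcn, the endothelial sialomucin endomucin, lay in the same direction as Rgs5 (0.91, SE 0.24, adjusted p = 0.141), and Plvap, which forms the diaphragms of fenestrated capillaries, in that of Pdgfrb (-1.12, SE 0.38, adjusted p = 0.142). Both lay apart by Malat1 range. Emcn had 45.0 to 51.2 CPM in the 5 libraries and 20.9 to 38.2 CPM in the other 7. Plvap had 20.5 to 36.2 CPM and 55.5 to 98.6 CPM in the same sets. Kdr, also of this list, gave 0.03 (SE 0.20), and its sets overlapped, at 19.5 to 27.3 CPM and 18.9 to 27.6 CPM. Of the 10 genes, 2 were wholly higher and 2 wholly lower in the 5 libraries, and 6 overlapped. The shares of all genes tested were 9.23% wholly higher and 13.1% wholly lower.

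The contractile genes Acta2 and Tagln were dominated by ctrl_vehicle 3. Acta2 (ENSMUSG00000035783, chromosome 19, 34241090 to 34255590, minus strand) encodes smooth muscle alpha-actin. It had 4.52, 4.46 and 9.03 CPM in cre_AA14, 5.10, 6.01 and 7.37 in cre_vehicle, 4.92, 6.90 and 7.52 in ctrl_AA14, and 3.57, 3.78 and 36.2 in ctrl_vehicle. The last library was 4.01 times the next of the 12, and the other ctrl_vehicle libraries were the lowest of all. Means were 6.45 ± 1.36 CPM in ctrl_AA14 and 14.5 ± 18.8 in ctrl_vehicle (SD, n = 3 each). The log2 fold change of -1.17 (SE 0.74, edgeR adjusted p = 0.350) turned to 0.81 (SE 0.35, adjusted p = 0.350) without ctrl_vehicle 3. For cre under vehicle the value of -1.24 (SE 0.74) likewise turned to 0.74.

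Tagln (ENSMUSG00000032085, chromosome 9, 45929619 to 45936058, minus strand) encodes transgelin, an actin-binding protein of smooth muscle. It had 15.6, 9.17 and 12.4 CPM in cre_AA14, 10.7, 8.82 and 14.2 in cre_vehicle, 14.3, 12.8 and 13.7 in ctrl_AA14, and 15.7, 14.4 and 45.4 in ctrl_vehicle. Both vehicle groups were apart, since the highest cre_vehicle library (14.2 CPM) was just below the lowest ctrl_vehicle library (14.4 CPM), and ctrl_AA14 also lay below ctrl_vehicle. The log2 fold change was -1.16 (SE 0.40, edgeR adjusted p = 1.00) for cre under vehicle and -0.89 (SE 0.40, adjusted p = 0.204) for AA14 under the control virus. Without ctrl_vehicle 3 these were -0.42 and -0.14. The average cre effect was -0.65 (SE 0.28, edgeR adjusted p = 1.00), and -0.28 without that library. The annotated exons of Tagln overlap those of Pcsk7 on the plus strand, and whether the counting used strand is not stated, so its counts are uncertain. Pcsk7, a proprotein convertase gene, had 10.8 to 18.7 CPM and was 13.2 to 16.1 CPM in the ctrl_vehicle group, with no peak in library 3.

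Promoters of contractile genes carry CArG boxes, the binding motif of serum response factor. The windows printed here, from RefSeq on GRCm38.p6, are those of Acta2 and of Myl9, the contractile gene of the smooth muscle list with a CArG box in its window. They run 5′ to 3′ on the gene's strand from 250 bases before to 50 bases after the gene's start, and capitals mark CArG boxes and CArG-like boxes. The Acta2 window is chr19:34255324-34255623, minus strand, and the Myl9 window is chr2:156775214-156775513, plus strand. The start is that of the RefSeq table, 34255373 for Acta2 and 156775464 for Myl9. For Acta2 it lies inside the GENCODE gene, whose 5′ end is 34255590. Positions below count from the RefSeq start for both genes.
Acta2: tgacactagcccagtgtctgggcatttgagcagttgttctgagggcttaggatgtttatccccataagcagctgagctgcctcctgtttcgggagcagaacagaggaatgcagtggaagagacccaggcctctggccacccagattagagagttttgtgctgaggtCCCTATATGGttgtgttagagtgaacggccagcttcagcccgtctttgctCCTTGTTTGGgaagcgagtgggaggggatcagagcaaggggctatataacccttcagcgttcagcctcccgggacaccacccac
Myl9: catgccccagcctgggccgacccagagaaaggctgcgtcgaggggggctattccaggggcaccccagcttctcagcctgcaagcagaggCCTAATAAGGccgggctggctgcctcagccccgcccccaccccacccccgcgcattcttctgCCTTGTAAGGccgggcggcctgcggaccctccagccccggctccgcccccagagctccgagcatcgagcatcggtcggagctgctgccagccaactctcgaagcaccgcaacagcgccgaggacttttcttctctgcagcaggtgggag
A CArG box was read as CC, 6 bases that are each A or T, and GG, which is its own reverse complement; a CArG-like box has 1 C or G among those 6 bases, and the definitions exclude each other. Among 32851 windows of the same length, 1.63% held a CArG box and 8.50% a CArG-like box. Acta2 had CArG-like boxes 84 and 34 bases before its start, and no CArG box. Myl9 had a CArG box 161 bases and a CArG-like box 99 bases before its start. The letters CATTCC, the core of the MCAT element, were also searched on both strands and occurred in 14.66% of windows, among them that of Acta2. Windows of 4 of the 8 members were used, and those of Rgs5, Cspg4 and Pdgfra held none of the 3 motifs. A match of letters is not a bound site, and no match says only that the letters are not in the window.

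Most genes of the smooth muscle list were highest in ctrl_vehicle 3. Of the 12 genes, 10 were highest there, where 22.7% of the 16406 genes that averaged 1 CPM or more were. At least 2-fold above every other library there were 6, and Actg2, a smooth muscle actin gene, had 0.288 CPM there and 0 counts in the other 11 libraries. Myh11, the smooth muscle myosin heavy chain, had 11.7 CPM in ctrl_vehicle 3 and at most 4.06 CPM elsewhere. Cnn1, calponin, had 2.95 CPM there and at most 0.281 CPM elsewhere. Myl9, a regulatory myosin light chain, had 37.9 CPM there and 14.5 to 18.9 CPM elsewhere. Tpm1, an actin-binding tropomyosin made by many cell types, varied least of the named contractile genes (59.0 to 87.5 CPM). The coactivator gene Myocd was at most 0.128 CPM in every library, and 8 skeletal muscle genes summed to 4.81 to 7.91 CPM.

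For AA14 under the control virus, 10 of the 12 smooth muscle genes were tested, with 1 positive and 9 negative values. The median was -0.84, none was called, and 3 had an unadjusted edgeR p under 0.05 (23.8% of all genes). Without ctrl_vehicle 3 there were 4 positive and 6 negative values, and the median was -0.06. For cre under vehicle all 10 were negative, with a median of -0.54 and none called, and without that library 8 were positive, with a median of 0.09. Both comparisons use ctrl_vehicle as their reference. In the remaining comparisons the medians were -0.16 for AA14 under the cre virus and 0.05 for cre under AA14.

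Genes of other cells were high in ctrl_vehicle 3 as well, and the myelin genes among them were also high in cre_vehicle 2. The myelin gene Mbp had 1016 CPM in ctrl_vehicle 3 and 1384 CPM in cre_vehicle 2, which had only 6.01 CPM of Acta2 and 8.82 CPM of Tagln. Summed over 10 oligodendrocyte genes, the level was 99.6 to 482 CPM in cre_AA14, 92.6 to 3372 in cre_vehicle, 87.4 to 793 in ctrl_AA14 and 129 to 2444 in ctrl_vehicle. Avp, the hypothalamic hormone transcript of the posterior lobe's axons, had 293 CPM in ctrl_vehicle 3 and at most 24.6 CPM elsewhere. Leaving out the 3 libraries highest in oligodendrocyte genes, a setting added after seeing the data, gave 1.00 for Acta2 under AA14 with the control virus. The part of posterior lobe tissue in the contractile genes of ctrl_vehicle 3 was not tested.

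**Figure D3:**
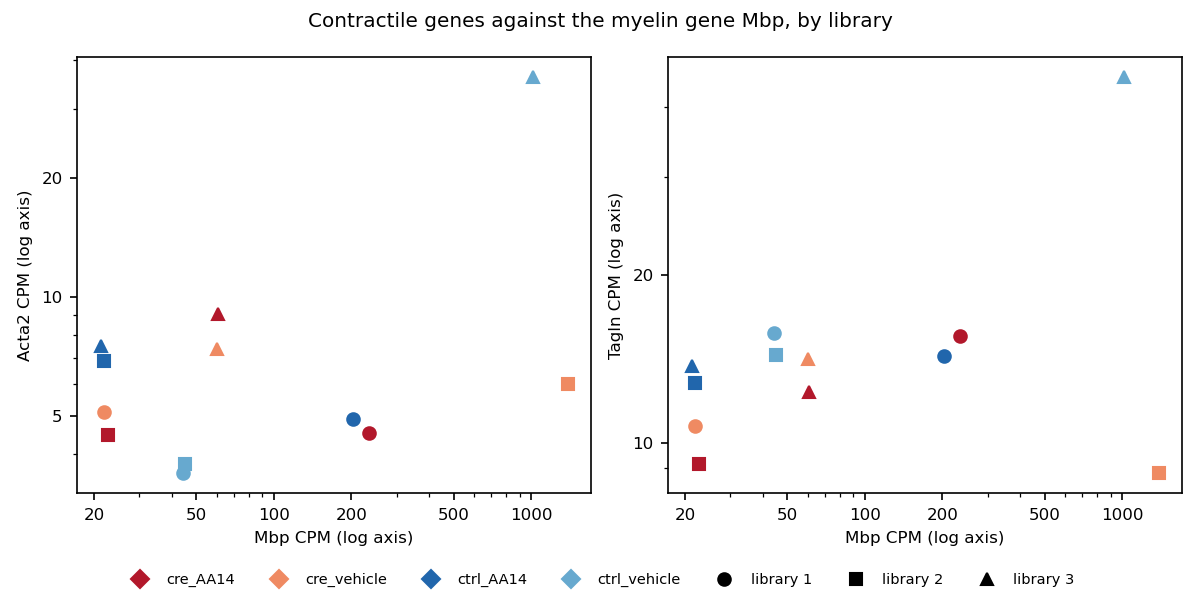
CPM of Acta2 (left) and Tagln (right) against CPM of the myelin gene Mbp in the 12 libraries (both axes log); colours are groups and marker shapes are library numbers. Both ctrl_vehicle 3 and cre_vehicle 2 exceed 1000 CPM of Mbp, and of these only ctrl_vehicle 3 is high in Acta2 (36.2 CPM, against 6.01 in cre_vehicle 2).

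Of the fibroblast genes, Dcn and Lum were the steadiest members. Dcn (ENSMUSG00000019929, chromosome 10, 97479609 to 97518143, plus strand) encodes decorin, a small leucine-rich proteoglycan that binds collagen fibrils. It had 234, 198 and 280.4 CPM in cre_AA14, 202, 181 and 237 in cre_vehicle, 189, 223 and 249 in ctrl_AA14, and 265, 202 and 215 in ctrl_vehicle. All groups overlapped, with a coefficient of variation of 13.9% over the libraries, against a median of 24.0% over the 16406 genes that averaged 1 CPM or more. The log2 fold change of AA14 was 0.20 (SE 0.18) under the cre virus and -0.05 (SE 0.18) under the control virus. For cre it was 0.11 under AA14 and -0.14 under vehicle (SE 0.18 each), and none of the 4 passed edgeR's test.

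Lum (ENSMUSG00000036446, chromosome 10, 97565128 to 97572703, plus strand) lies beside Dcn and encodes lumican, a related proteoglycan. It had 25.0, 25.5 and 29.2 CPM in cre_AA14, 27.6, 21.6 and 26.0 in cre_vehicle, 25.8, 32.5 and 36.7 in ctrl_AA14, and 29.6, 21.3 and 24.5 in ctrl_vehicle. The groups overlapped, and the ctrl_AA14 mean of 31.7 ± 5.50 CPM was above the 25.1 ± 4.15 CPM of ctrl_vehicle (SD, n = 3 each) by a log2 fold change of 0.33 (SE 0.18, edgeR adjusted p = 0.272). Its coefficient of variation was 16.2%. Among the 12 libraries, ctrl_vehicle 3 had rank 7 for Dcn and rank 10 for Lum, and rank 1 for both contractile genes.

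Pdgfra (ENSMUSG00000029231, chromosome 5, 75152292 to 75198215, plus strand) encodes the receptor that marks many fibroblasts. It had 14.7, 23.7 and 23.4 CPM in cre_AA14, 18.9, 27.8 and 20.8 in cre_vehicle, 17.4, 20.3 and 20.6 in ctrl_AA14, and 20.7, 21.3 and 45.7 in ctrl_vehicle. The ctrl_AA14 libraries were all below the ctrl_vehicle libraries, but by a margin of 20.6 against 20.7 CPM at the nearest pair. The log2 fold change was -0.59 (SE 0.31, edgeR adjusted p = 0.260), and -0.11 without ctrl_vehicle 3. Short annotated genes overlap its exons, 2 of them on the other strand, so a small part of its counts is uncertain.

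Collagen and matrix-assembly genes had lower values than Dcn and Lum in one comparison. Of the 14 fibroblast list genes, 12 had negative and 2 positive values for AA14 under the control virus, with a median of -0.82. None was called, and 9 had an unadjusted edgeR p under 0.05, where 23.8% of all genes did. Without ctrl_vehicle 3 the median was -0.58, with 13 negative values and 1 at that p (3269 of 23436 genes tested). Their summed level was 222 to 252 CPM in ctrl_AA14 and 327 to 503 CPM in ctrl_vehicle (327 to 377 without library 3). These groups did not overlap for the sum, nor for 37.7% of single genes. In cre_AA14 the summed level was 229 to 450 CPM and in cre_vehicle 237 to 475 CPM. Col1a2, a chain of type I collagen, averaged 81.4 ± 3.36 CPM in ctrl_AA14 and 131 ± 23.4 in ctrl_vehicle (SD, n = 3 each; -0.69, SE 0.28, edgeR adjusted p = 0.176). Loxl1, which cross-links elastin, averaged 27.7 ± 2.67 and 50.6 ± 7.16 CPM in the same groups (-0.87, SE 0.31, adjusted p = 0.146). Islr, a marker of stromal cells, gave -0.76 (SE 0.30, adjusted p = 0.167). All 3 were wholly lower in the 5 libraries with the most Malat1. Col1a2 had 77.1 to 83.6 CPM in them and 115 to 163 CPM in the other 7. Of the 14 genes, 6 were wholly lower in those 5 libraries, 0 wholly higher, and 8 overlapped. Over all genes tested, 13.1% were wholly lower there. For cre under AA14 the list had 11 positive and 3 negative values, a median of 0.54 and none called. An unadjusted edgeR p under 0.05 was found for 3 of them, and for 8.52% of all genes.

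Other small leucine-rich proteoglycans covered both patterns. Bgn, biglycan, averaged 44.6 ± 6.83 CPM in ctrl_AA14 and 48.7 ± 17.2 in ctrl_vehicle (SD, n = 3 each), and Ogn, osteoglycin, 43.2 ± 7.35 and 46.9 ± 20.6 CPM. Prelp, which anchors basement membranes to connective tissue, averaged 31.1 ± 5.18 CPM in ctrl_AA14 and 73.2 ± 25.2 in ctrl_vehicle (-1.24, SE 0.42, edgeR adjusted p = 0.141). Fmod, fibromodulin, was 57.1 CPM in ctrl_vehicle 3 and at most 6.12 CPM elsewhere. By Malat1 range, Prelp had 25.2 to 36.6 CPM in the 5 libraries with the most Malat1 and 52.2 to 101 CPM in the other 7. Fmod had 0.324 to 1.79 CPM and 2.91 to 57.1 CPM in the same sets. In this list of 8 genes, 2 were wholly lower in those 5 libraries and 0 wholly higher. The shares of all genes tested were 13.1% and 9.23%. Kera, keratocan, a neighbour gene of Lum that is known from the cornea, had 0 counts in all 12 libraries, which allows up to 0.0607 CPM in the shallowest (3 counts, counting error only). Of the 7 tested, 1 had a positive and 6 negative values for AA14 under the control virus, with a median of -0.32. No gene of these was called, and 3 had an unadjusted edgeR p under 0.05 (23.8% of all genes). Without ctrl_vehicle 3, 4 were positive, the median was 0.13 and 0 passed at that p.

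Regulators of these programs were measured as well. For AA14 under the control virus, 13 genes of transforming growth factor beta signaling and serum response factor gave 12 negative values and 1 positive. The median was -0.77, none was called and 8 had an unadjusted edgeR p under 0.05, where 23.8% of all genes did. Without ctrl_vehicle 3 all 13 were negative, with a median of -0.65 and 6 at that p (3269 of 23436 genes tested). The 3 named by the rule on mean CPM were nearer 0: 0.02 (SE 0.17) for the receptor gene Tgfbr1 (-0.13 without ctrl_vehicle 3), -0.17 (SE 0.15) for Mrtfb, a coactivator of serum response factor, and -0.35 (SE 0.18) for Smad3, a signal transducer. Summed over the 13 genes, the level was 284 to 377 CPM in cre_AA14, 297 to 382 in cre_vehicle, 267 to 278 in ctrl_AA14 and 363 to 389 in ctrl_vehicle. This sum also lay apart by Malat1 range, at 267 to 297 CPM in the 5 libraries with the most Malat1 and 348 to 389 CPM in the other 7. AA14 and the Malat1 range cannot be told apart within the control virus groups alone.

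**Figure D4:**
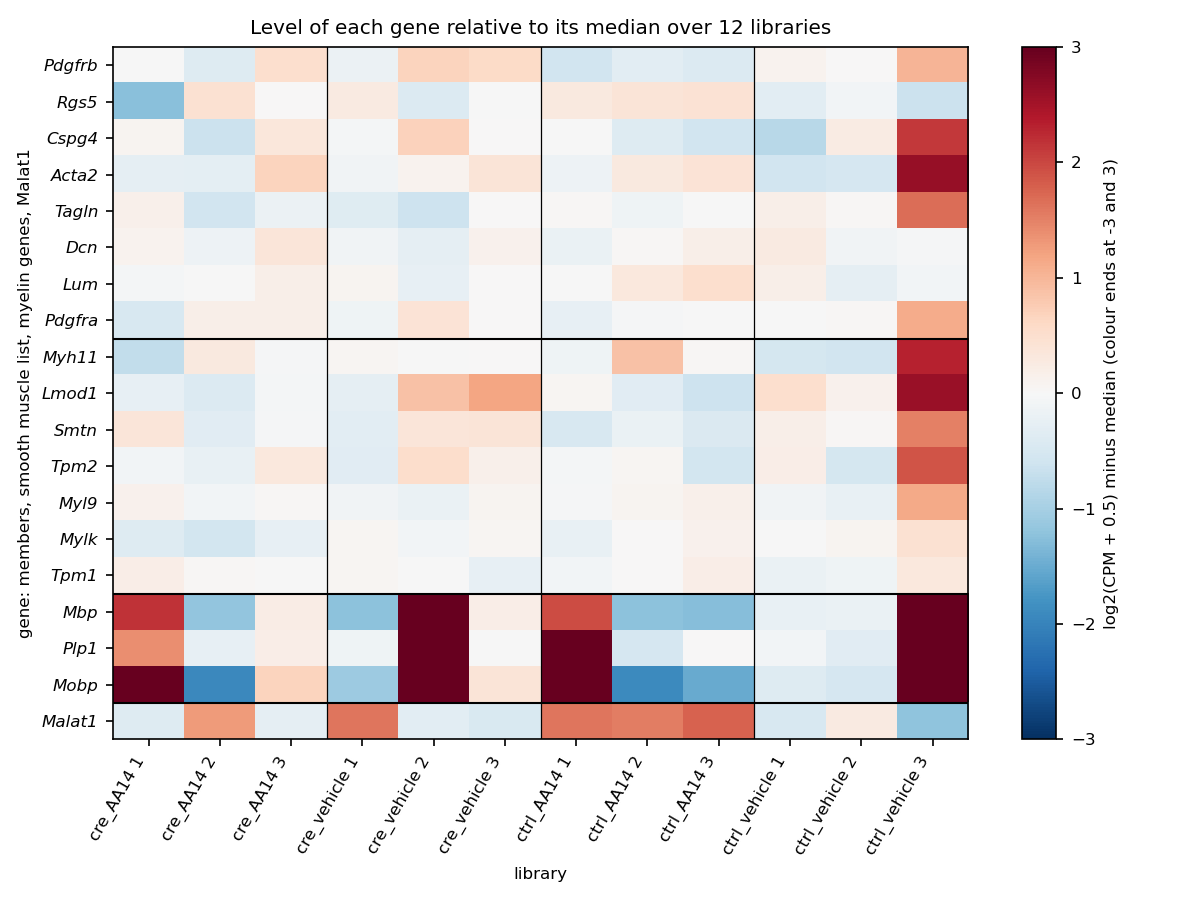
Each cell is the log2(CPM + 0.5) of a gene in a library minus that gene's median over the 12 libraries. Rows are the 8 members, part of the smooth muscle list, myelin genes and Malat1, and columns are libraries. The part drawn is Myh11, Lmod1, Smtn, Tpm2, Myl9, Mylk and Tpm1, and the other genes of that list are not shown. Red is above and blue below the median, and colours end at -3 and 3. The contractile rows, Tpm1 least, are most red in ctrl_vehicle 3, the myelin rows are also red in cre_vehicle 2, ctrl_AA14 1 and cre_AA14 1, and the Dcn and Lum rows are nearly white.

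Across the members, AA14 under the control virus gave 6 negative and 2 positive values with a median of -0.74, against -0.02 over all genes. Without ctrl_vehicle 3 there were 5 negative and 3 positive values, with a median of -0.10. The groups did not overlap for 4 members, 1 higher (Rgs5) and 3 lower (Pdgfrb, Tagln and Pdgfra), where 37.7% of all genes did not overlap (17.6% higher, 20.1% lower). For AA14 under the cre virus the median was -0.06 and 0 members did not overlap (5.86% of genes), and for cre under AA14 it was -0.01 with 0 members (14.1%). Cre under vehicle had a median of -0.26 and 1 member, Tagln, wholly lower, where 4.92% of genes did not overlap. The difference between the AA14 effects, cre minus control, had a median of 0.53 over the members and 0.03 over all genes, with no member called. Without ctrl_vehicle 3 the member medians were 0.13 for cre under vehicle and -0.12 for the difference. The comparisons share groups, so their values are not separate evidence.

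**Figure D5:**
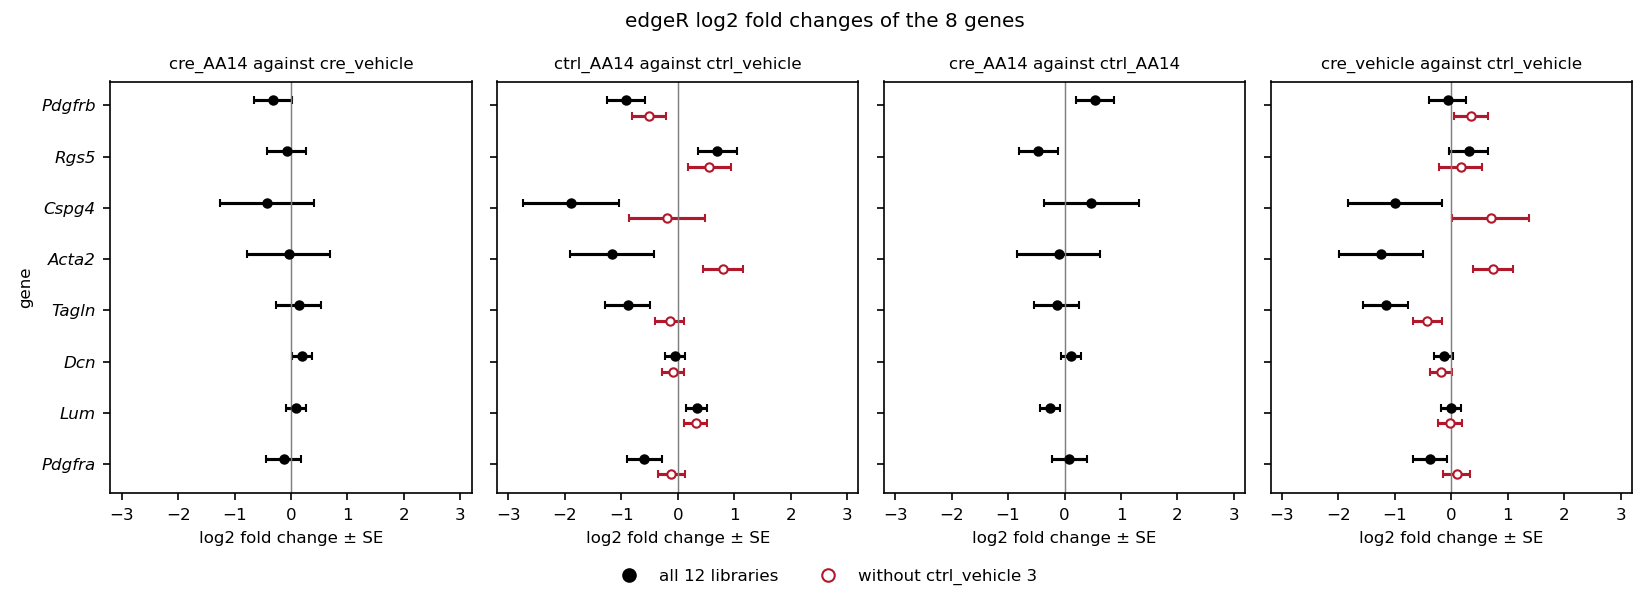
edgeR log2 fold changes (± SE) of the 8 genes in the 4 comparisons of groups, from all 12 libraries (filled) and, where ctrl_vehicle is compared, without ctrl_vehicle 3 (open). Acta2 under AA14 with the control virus is -1.17 with all libraries and 0.81 without that library, and the values of Dcn and Lum differ little between the fits.

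No pair of members was shown to vary together over the 12 libraries. Of 28 pairs, 16 had a positive and 12 a negative Pearson r of log2(CPM + 0.5), and 0 passed a Benjamini-Hochberg adjustment over the pairs by Pearson's r or by Spearman's rho (permutation tests, 100000 resamples, two-sided). Pdgfrb and Cspg4 had the smallest p (r = 0.76, permutation p = 0.00264, adjusted p = 0.0739), but r = 0.43 without the 2 libraries farthest from the median and 0.60 without ctrl_vehicle 3. Dcn and Lum had r = 0.62 (permutation p = 0.0313, adjusted p = 0.125) and rho = 0.66, and r = 0.64 without the 2 libraries farthest from the median. Pdgfrb and Rgs5 had r = -0.56 (permutation p = 0.0566, adjusted p = 0.178) and rho = -0.75, and r = -0.40 without the 2 farthest libraries. Acta2 and Tagln had r = 0.76 but rho = -0.11, and r = -0.16 without the 2 farthest libraries, so that relation rests on those libraries. The permutations shuffled all 12 libraries without regard to group. For deviations from the group means, as a description, r was 0.74 for Pdgfrb and Cspg4 and 0.83 for Dcn and Lum. It was -0.41 for Pdgfrb and Rgs5 and 0.85 for Acta2 and Tagln, with ctrl_vehicle 3 included.

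The genes whose profile over the 12 libraries was most like that of each member were sought among 14278 genes, as a description. Pdgfrb was nearest to Plpp3, Lamb2 and Lrp1 (r = 0.97 each), and these values held without ctrl_vehicle 3 (0.95 to 0.97). Rgs5 was nearest to the zinc finger genes Zfp952 and Zfp563 and to Cog6, a Golgi complex subunit gene (r = 0.97 to 0.98). Acta2 was nearest to Prkcd (r = 0.95, and 0.76 without ctrl_vehicle 3) and Tagln to Fam178b (r = 0.94, and 0.67). Pdgfra was nearest to Fads3 (r = 0.93, and 0.79) and Cspg4 to Slc6a15 (r = 0.96, and 0.87). Dcn and Lum had looser neighbours, Gpx7 (r = 0.85) and Bpifb4 (r = 0.91). All profiles share the same 12 libraries, and their depth and makeup.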

How the data were processed

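Whole-number counts per gene were deposited by the authors for 12 pituitary libraries. Paired reads from NEBNext Ultra libraries of TRIzol RNA were mapped with HISAT2 2.0.0, per the labels' protocols. The submitters' processing notes name GRCm38, featureCounts 1.5.0-p3 and DESeq 1.8.3. Not given in the sources used here are the annotation release, the strand setting and how shared reads were handled. Of 55421 gene IDs, 55154 matched a symbol. Gene coordinates and exon lengths come from GENCODE M21 on GRCm38.

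Counts were fitted in edgeR 4.0.16 (TMM, filterByExpr, quasi-likelihood F test, 1 mean per group over all 12 libraries, Benjamini-Hochberg at 0.05 over 22630 genes). An SE is the size of the log2 fold change over the root of its F statistic, an indirect estimate. CPM use the same scaling, and log2 levels a pseudocount of 0.5. DESeq2 1.42.0 and limma-voom (limma 3.58.1) were alternatives. The edgeR, DESeq2 and limma-voom steps were tested on simulated data. The numbers shared by libraries of different groups did not pair them. Totals of 48693682 to 73388221 counts left counting error small except for Cspg4.

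The members and lists were chosen with earlier results of these data known. By the rule, all 8 members, the 3 genes of highest mean CPM in each list, the 3 genes most like each member and Gpr101 were named. Malat1, Fos, Pcsk7, Avp, Myh11, Cnn1, Actg2, Abcc9, Higd1b, Fmod, Kera and Myocd lie outside the rule and were named after their values were seen, and the text gives part of the genes the rule allows.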

Additional observations from a re-analysis of the deposited data

How the results depend on the processing

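The 56 fold changes (8 genes in 7 comparisons) gave 1288 values under the alternatives, of which 1200 kept their direction and their side of the threshold, 87 changed sign and 1, Rgs5 in the fit of its groups only, passed it (0.71). None of the 87 was past the threshold, and the cause was not tested. The Malat1 term and the fit without the 3 libraries highest in oligodendrocyte genes were added after seeing the data. With the Malat1 term, for AA14 under the control virus Rgs5 was -0.021 and Dcn was 0.16, for cre under AA14 Cspg4 was -0.37 and Dcn was -0.037, for cre under vehicle Pdgfrb was 0.14. There also, for the difference of AA14 effects Pdgfrb was -0.14, for the average AA14 effect Rgs5 was -0.077. Without the 3 libraries highest in oligodendrocyte genes, for AA14 under the cre virus Tagln was -0.019, Lum was -0.023 and Pdgfra was 0.040, for AA14 under the control virus Acta2 was 1.00 and Dcn was 0.044, for cre under AA14 Dcn was -0.013 and Pdgfra was -0.0096. There also, for cre under vehicle Pdgfrb was 0.21, Cspg4 was 0.29, Acta2 was 0.78 and Lum was 0.094, for the difference of AA14 effects Acta2 was -1.07, for the average AA14 effect Acta2 was 0.47 and Pdgfra was 0.015. There also, for the average cre effect Cspg4 was 0.53 and Acta2 was 0.24. Under limma-voom, for AA14 under the cre virus Acta2 was 0.088, for AA14 under the control virus Acta2 was 0.38, for cre under AA14 Acta2 was 0.24. There also, for cre under vehicle Pdgfrb was 0.38, Cspg4 was 0.46, Acta2 was 0.53 and Lum was 0.014, for the difference of AA14 effects Acta2 was -0.29, for the average AA14 effect Acta2 was 0.23. There also, for the average cre effect Cspg4 was 0.55, Acta2 was 0.39, Dcn was 0.11 and Pdgfra was 0.067. Lum for cre under vehicle, near 0 in the main fit (-0.0034), was 0.019 with RLE size factors, 0.027 with upper-quartile factors, 0.013 with TMM without the hormone genes, 0.0082 with mean of at least 1 CPM, 0.018 with DESeq2 and 0.0087 with groups compared only. Dcn for AA14 under the control virus was 0.081 with upper-quartile factors. For AA14 under the cre virus, with 1 library left out at a time, Rgs5 ranged over -0.48 to 0.26, Cspg4 ranged over -0.78 to 0.0072, Acta2 ranged over -0.47 to 0.13, Tagln ranged over -0.073 to 0.34, Lum ranged over -0.012 to 0.15 and Pdgfra ranged over -0.25 to 0.053. For AA14 under the control virus, with 1 library left out at a time, Acta2 ranged over -1.63 to 0.81 and Dcn ranged over -0.13 to 0.079. For cre under AA14, with 1 library left out at a time, Acta2 ranged over -0.52 to 0.080, Tagln ranged over -0.33 to 0.045, Dcn ranged over -0.024 to 0.23 and Pdgfra ranged over -0.017 to 0.28. For cre under vehicle, with 1 library left out at a time, Pdgfrb ranged over -0.25 to 0.35, Cspg4 ranged over -1.52 to 0.70, Acta2 ranged over -1.70 to 0.74, Lum ranged over -0.11 to 0.13 and Pdgfra ranged over -0.57 to 0.10. For the difference of AA14 effects, with 1 library left out at a time, Cspg4 ranged over -0.23 to 1.99, Acta2 ranged over -0.85 to 1.59 and Pdgfra ranged over -0.014 to 0.66. For the average AA14 effect, with 1 library left out at a time, Acta2 ranged over -0.84 to 0.39 and Dcn ranged over -0.0054 to 0.14. For the average cre effect, with 1 library left out at a time, Rgs5 ranged over -0.27 to 0.098, Cspg4 ranged over -0.52 to 0.59, Acta2 ranged over -0.90 to 0.32, Dcn ranged over -0.081 to 0.049 and Pdgfra ranged over -0.24 to 0.093. The counts of genes past the threshold were, in DESeq2, 14 for AA14 under the cre virus, 2299 for AA14 under the control virus, 34 for cre under AA14, 19 for cre under vehicle, 26 for the difference, 93 for the average AA14 effect and 12 for the average cre effect, against 0 or 1 in the main fit. In limma-voom they were 3409 for AA14 under the control virus, 0 for the difference, and 2 each for cre under vehicle and both averages. The fit of the groups compared only gave 2266 for AA14 under the control virus and 1 for cre under AA14. The Malat1 term gave 4 for AA14 under the control virus, the difference and the average AA14 effect, 3 for cre under vehicle and the average cre effect, and 2 for cre under AA14. Without the 3 libraries the counts were 1 for AA14 under the cre virus, 2 for AA14 under the control virus, and 3 for cre under vehicle, the difference and the average cre effect. Single counts were 2 for cre under vehicle (RLE), for the average cre effect (upper quartile, or a mean of at least 1 CPM) and for AA14 under the control virus (no filter). With 1 library left out at a time, the counts ranged over 0 to 2 for AA14 under the cre virus, 1 to 5 for AA14 under the control virus, 0 to 1 for cre under AA14, 1 to 3 for cre under vehicle, 1 to 3 for the difference, 1 to 4 for the average AA14 effect and 1 to 3 for the average cre effect. Same-numbered libraries of different groups did not deviate together (correlations -0.56 to 0.36), so the numbers do not pair them. With the replicate block the count for AA14 under the control virus was 1, as without it, and no member was called. Counting error limits Cspg4 most, and 3 libraries a group limit every value.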

Other observations

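Genes of other pituitary cells were set beside the members in the same edgeR fit, for AA14 under the control virus, and none of them was called. All 7 pituicyte genes, which mark the glia of the posterior lobe, had negative values (median -0.86, 2 at an unadjusted edgeR p under 0.05). Of 8 stem and folliculostellate genes, 6 were negative and 2 positive (median -1.04, 3 at that p). All 8 macrophage genes were negative (median -0.55, 3 at that p). Of 7 hormone genes, 5 were positive and 2 negative (median 0.54, 3 at that p), and all 5 erythroid genes were positive (median 0.98, 0 at that p). The median over all genes tested was -0.02, and 23.8% of them had an unadjusted edgeR p under 0.05. Without ctrl_vehicle 3 the medians were -0.17 for pituicyte genes (5 of 7 negative), -0.11 for stem and folliculostellate genes (4 of 8 negative), -0.42 for macrophage genes (7 of 8 negative), 0.33 for hormone genes and 0.94 for erythroid genes. Summed over 7 pituicyte genes, the level was 141 to 182 CPM in ctrl_AA14 and 149 to 674 CPM in ctrl_vehicle (149 to 200 without library 3).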
